A study of Homo sapiens with 6 samples.

Results

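The major histocompatibility complex (MHC) class II genes and their coactivator CIITA were followed in peak lists of H3K27ac, histone H3 acetylated on its lysine 27, which is found at promoters and enhancers in use. The members were 10 of 20033 protein-coding genes, namely CIITA, CD74, HLA-DRA, HLA-DRB1, HLA-DPA1, HLA-DPB1, HLA-DQA1, HLA-DQB1, HLA-DMA and HLA-DMB. They were listed by name, with earlier results of these data known. For each member, peaks were counted in a promoter window of 2500 bases to each side of the transcription start and in the gene body with 10 kb added at each end. CIITA has several annotated starts, and each of them was given a window.

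MHC class II molecules present peptides from engulfed material to CD4+ T cells and are made by dendritic cells, B cells, monocytes and part of the acute myeloid leukemias (AML). Their promoters share S, X and Y boxes, bound by the RFX, CREB and NF-Y factors, and transcription starts when CIITA docks on these factors. CIITA itself is read from alternative promoters, of which pI is used by dendritic and other myeloid cells, pIII mainly by lymphoid cells and pIV after interferon-gamma.

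H3K27ac was mapped by CUT&Tag, in which an antibody guides a transposase to the marked chromatin, in the human AML lines Kasumi-1 and MV4-11. Kasumi-1 carries the RUNX1::RUNX1T1 fusion and MV4-11 a KMT2A fusion. In each line the cells carried a control hairpin (NC, which the labels call untreated) or a lentiviral hairpin that knocks down the histone chaperone ANP32B (sh-ANP32B), and the comparison asks where the mark was lost with ANP32B. Which of the study's ANP32B hairpins was used for these libraries is not given in the sources used here. One peak list, called on merged replicates, stood for each of the 4 groups, so that differences had no replicate check and no test was made. The lists hold positions and lengths of peaks only. A peak list shows where the mark passed the caller's threshold, not how strong it was, and the depth of each library is unknown.

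On chromosomes 1 to 22, X and Y the NC and sh-ANP32B lists of Kasumi-1 held 22768 and 23878 peaks and those of MV4-11 24523 and 22136. Wherever 4 values are given below, they stand in this order. The peaks covered 32.7, 33.7, 27.9 and 23.0 Mb, with median peak widths of 1044, 980, 815 and 742 bases. The lists from MV4-11 thus had narrower peaks before any gene was considered. The lines were then checked against their own markers. At the promoters HOXA9 and HOXA10 went against the labels, and the other markers did not tell the lines apart. HOXA9, a homeobox gene typical of KMT2A-rearranged leukemia, had 4335 and 4707 bases under peaks at its promoter in the NC and sh-ANP32B lists of Kasumi-1, against 769 and 659 bases in those of MV4-11. HOXA10, of the same cluster, had 5001, 5001, 2648 and 1638, and MEIS1, their partner, was even with 3103, 3264, 3337 and 3123. RUNX1T1, POU4F1 and KIT, chosen as markers of Kasumi-1, had no promoter peak in any list. Over the gene body with 10 kb added, KIT had 2769, 2820, 5423 and 4951 bases, which also went against the labels. In that window RUNX1T1 and POU4F1 had none. HOXA9 had 29486, 30043, 9731 and 7200 there and HOXA10 25478, 26128, 11298 and 9636, again against the labels. MEIS1 had 11031, 11794, 13238 and 12414, somewhat more in MV4-11. Line names are therefore used as labels, and every difference between the lines below is one between libraries so labelled. Of 11 myeloid markers, 7, 7, 6 and 4 had a promoter peak, as did 0 of 5 T cell markers in each list. The shares of all genes were 47.7%, 45.3%, 35.8% and 28.6%. Between the NC lists, 5 of 8 myeloid markers tested were lower in MV4-11 by 1.5-fold or more, and 2, LYZ and FCGR1A, were higher. Over all genes tested, 61.9% were lower and 5.87% higher. Of 5 B cell markers, 2, 2, 1 and 1 had one, where EBF1 did so in the Kasumi-1 lists only and CD79A in all 4.

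The class II promoters are recognised by short runs of letters, which are shown here because they carry the boxes that CIITA depends on. Promoter sequences came from the RefSeq table of GRCh38.p14, in which 8 of the 10 members were found; CIITA and HLA-DRA are named only. The letters searched were GCAAC, the core of the X box, and ATTGG, the core of the Y box, on both strands from 250 bases before to 50 bases after the start. Of 15344 promoters in the table, 34.1% held GCAAC and 36.6% held ATTGG, and 0.411% held GCAAC followed by ATTGG on the strand of the gene with their first letters 25 to 45 bases apart. Among the 8 members, ATTGG was found in 7, GCAAC in 2 and the ordered pair in 1, HLA-DRB1. The pair was also present in HLA-DRB5, HLA-DOA and HLA-DQA2, so that 4 of 13 class II promoters of the table held it. The sequences run 5′ to 3′ on the strand of the gene, with GCAAC and ATTGG in capitals.
HLA-DRB1 (chr6:32589880-32589946, minus strand): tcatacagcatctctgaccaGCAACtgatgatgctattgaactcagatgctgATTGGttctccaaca
HLA-DRB5 (chr6:32530363-32530429, minus strand): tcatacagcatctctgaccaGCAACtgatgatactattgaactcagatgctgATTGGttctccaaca
HLA-DOA (chr6:33009644-33009711, minus strand): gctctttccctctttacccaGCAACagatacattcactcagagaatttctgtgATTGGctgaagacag
HLA-DQA2 (chr6:32741263-32741337, plus strand): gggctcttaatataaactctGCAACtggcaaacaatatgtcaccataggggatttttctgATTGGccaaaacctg

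The stretches of HLA-DRB1 and HLA-DRB5 differed by 1 of 67 bases, G33A, with HLA-DRB1 first and positions counted from 1 at the 5′ end. The near-identity of these paralogs limits how uniquely short reads can be placed there. Spacing of the pair was 32 bases in HLA-DRB1 and HLA-DRB5, 33 in HLA-DOA and 40 in HLA-DQA2.

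In 4 further members ATTGG stood on the strand of the gene without GCAAC at that spacing. These stretches are shown because they reach back over the place where the X box lies in HLA-DRB1, with only ATTGG in capitals.
HLA-DPB1 (chr6:33075846-33075905, plus strand): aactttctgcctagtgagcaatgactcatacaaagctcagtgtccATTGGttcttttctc
HLA-DQA1 (chr6:32637293-32637352, plus strand): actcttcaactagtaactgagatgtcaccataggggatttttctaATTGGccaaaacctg
HLA-DQB1 (chr6:32666731-32666790, minus strand): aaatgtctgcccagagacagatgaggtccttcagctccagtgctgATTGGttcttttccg
HLA-DMA (chr6:32953162-32953221, minus strand): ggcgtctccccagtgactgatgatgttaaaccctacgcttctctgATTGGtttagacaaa

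The first letter of ATTGG lay 99 bases before the start in HLA-DPB1, 68 in HLA-DQA1, 88 in HLA-DQB1 and 79 in HLA-DMA, which had a further ATTGG 49 bases before it. In HLA-DMB and CD74 the letters were found on the other strand only, and HLA-DPA1 held neither run. A match describes letters only, and the missing GCAAC says nothing of the factors bound.

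CD74, the one member of the table with a peak over its promoter in every list, is shown over the 250 bases before its start (chr5:150412911-150413160, minus strand), with CCAAT, the reverse complement of ATTGG, in capitals.
CD74: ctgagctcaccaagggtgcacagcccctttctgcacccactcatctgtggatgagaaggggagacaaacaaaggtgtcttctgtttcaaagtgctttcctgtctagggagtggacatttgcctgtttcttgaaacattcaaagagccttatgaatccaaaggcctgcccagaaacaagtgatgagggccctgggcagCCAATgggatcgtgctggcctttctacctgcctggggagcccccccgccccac

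Most members had no H3K27ac peak at all, while CIITA and CD74 did. Of the 10 members, 2 had a peak in a promoter window in Kasumi-1 NC (CIITA and CD74) and 3 with sh-ANP32B (HLA-DRB1 in addition). Each MV4-11 list had 1 such member, CD74. Over all 20033 genes the shares with a promoter peak were 47.7%, 45.3%, 35.8% and 28.6% in that order. In 7 of 10 members no list had a promoter peak, against 50.1% of all genes, and 1 of 10, CD74, had one in all 4 lists, against 25.9%. The gene bodies with 10 kb added held a peak in 3, 4, 3 and 3 members, where the shares of all genes were 61.5%, 60.2%, 55.4% and 49.4%. Here 6 of 10 members had no peak in any list, against 33.5% of all genes, and 3 of 10 had one in all 4, against 44.2%.

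**Figure D1:**
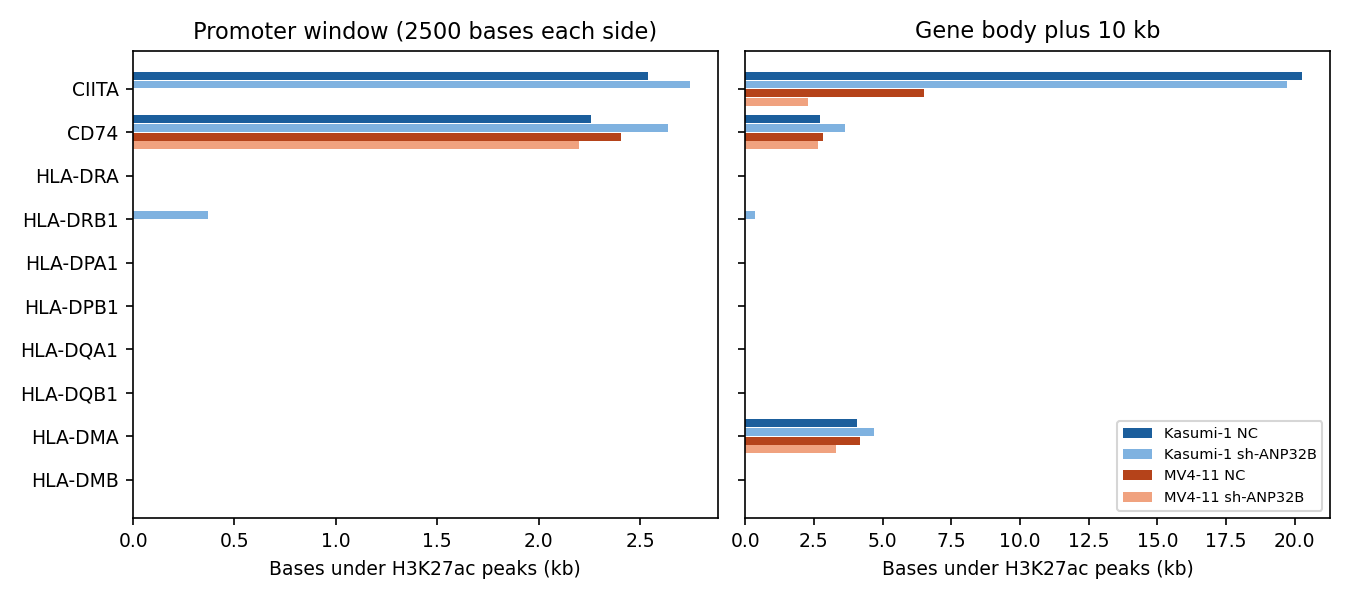
Bases under H3K27ac peaks (kb) in the promoter window and in the gene body with 10 kb added, for each of the 10 members (vertical axis) and each of the 4 libraries (bars, 1 library each, no error). In the promoter window CIITA and CD74 carry nearly all of the covered bases, and HLA-DRB1 shows the single bar of 370 bases in Kasumi-1 sh-ANP32B. In the gene body with 10 kb added, the bars of HLA-DMA are longer than those of CD74 in every list. These bars of HLA-DMA are peaks at the neighbouring gene BRD2.

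The knockdown was compared within each line by the bases under peaks, where a member was counted as changed from a 1.5-fold difference on. In Kasumi-1, promoter windows of 0 members were lower with sh-ANP32B, beside 14.6% of the genes with a peak in either list, and 1 of 3, HLA-DRB1, was higher, beside 4.89%. In MV4-11, 0 of 1 promoter windows were lower, beside 45%, and 0 were higher, beside 7.28%. In gene bodies with 10 kb added, 0 of 4 members were lower and 1, HLA-DRB1, higher in Kasumi-1, beside 9.95% and 5.98% of genes. In MV4-11 1 of 3, CIITA, was lower and 0 were higher, beside 40.5% and 8.29%. Of the promoter windows with a peak in NC, 0 of 2 lost it in Kasumi-1, beside 6.84%, and 0 of 1 in MV4-11, beside 24.4%. Between the NC lists, 1 of 2 promoter windows, that of CIITA, and 1 of 3 gene bodies, also that of CIITA, were lower in MV4-11, beside 61.9% and 51% of genes, and none was higher, beside 5.87% and 14.7%. With so few members under a peak, these counts cannot be set apart from the shares of all genes.

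CIITA, which binds no DNA itself and recruits acetyltransferases to the class II promoters, lies at chr16:10866222-10943021 on the plus strand. Its annotated starts fell into 4 places along the gene, at 10866222, 10877202, 10878969 and 10922167. They are called pI, pIII, pIV and the 3′ start here, by their order, and 10877202 is the canonical start.

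The bases under peaks over the gene and its flanks were 20260 and 19733 in the NC and sh-ANP32B lists of Kasumi-1 and 6506 and 2294 in those of MV4-11, in 10, 14, 5 and 3 peaks. Both Kasumi-1 lists thus covered more of CIITA than either MV4-11 list. At least as many bases were held by 0.619% and 0.769% of all genes in the NC and sh-ANP32B lists of Kasumi-1. In those of MV4-11 the shares were 5.10% and 16.3%. CIITA and CD74 were set beside all genes after their values were seen, so such shares here and below are descriptions only. Genes with long bodies have more room for peaks, and the shares for CIITA were not set against genes of equal length.

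At the promoters, 1 broad peak lay over pIII and pIV in both Kasumi-1 lists. It spanned chr16:10877166-10881401 in NC (4236 bases, wider than 96.2% of the peaks in its list) and chr16:10876958-10881352 in sh-ANP32B (4395 bases, wider than 96.4%). Neither MV4-11 list had a peak in these windows. The window of pIII held 2537 and 2745 bases in the NC and sh-ANP32B lists of Kasumi-1, and the window of pIV held the whole peak. These windows overlap, so that the peak counts for both promoters and does not tell which one was in use.

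Around pI the windows held 230 bases in each Kasumi-1 list and 0 in each MV4-11 list. This difference turned on the edge of the window. The first peak after pI began 2271 bases from the start in both Kasumi-1 lists and 2641 bases from it in both MV4-11 lists, where the window ends at 2500. The start of pI itself was under no peak in any list, and the 3′ start had 0 bases in all 4 windows.

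**Figure D2:**
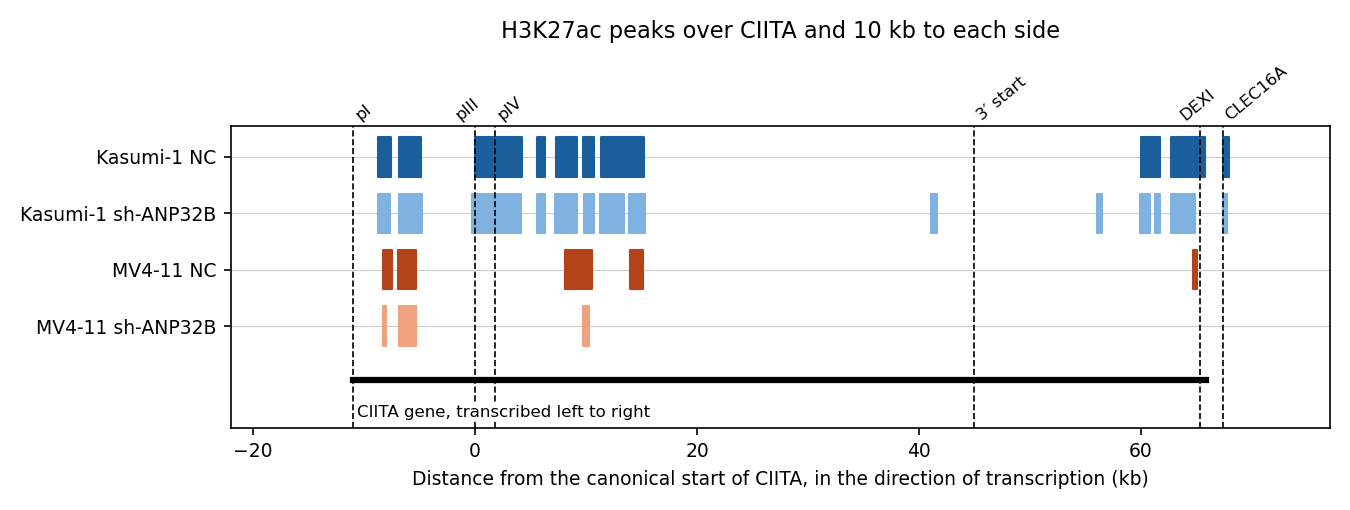
H3K27ac peaks (coloured bars, to scale) of the 4 libraries over CIITA and 10 kb to each side, by distance in kb from the canonical start. Dashed lines mark the CIITA starts and those of the neighbours DEXI and CLEC16A, and the bars over pIII and pIV appear in the Kasumi-1 lists only, while those between pI and pIII appear in all 4.

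Merged over the lists, the peaks formed 11 stretches, of which 3 were under a peak in all 4 lists, 4 in both Kasumi-1 lists only, 0 in both MV4-11 lists only, and 2 in 1 list. A pair of neighbouring stretches between pI and pIII was common to all. The one nearer to pI (chr16:10868493-10869738) had 1128, 1068, 876 and 278 bases under peaks. The other (chr16:10870226-10872430) had 2000, 2080, 1672 and 1500 bases, the most even of the 11. The remaining common stretch lay in the first intron of the canonical transcript (chr16:10884441-10887956), with 2887, 2942, 2494 and 516 bases. In each of the 3, MV4-11 sh-ANP32B had the fewest.

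Further into the first intron the lists separated. The stretch chr16:10888495-10892481 had 3897, 3560, 1110 and 0 bases, so that MV4-11 sh-ANP32B had no peak there. Another between it and the promoters (chr16:10882756-10883492) had 737 and 694 bases in Kasumi-1 and none in MV4-11. A pair of small stretches was found in Kasumi-1 sh-ANP32B only, with 599 bases at chr16:10918252-10918850 and 483 bases at chr16:10933188-10933670. Both were short for their list, whose median peak width was 980 bases.

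At the 3′ end the flank of CIITA reaches other genes. The stretch chr16:10939878-10942991, next to the start of DEXI, had 3077, 2172, 354 and 0 bases. One before it (chr16:10937075-10938936) had 1775 and 1373 bases in Kasumi-1 and none in MV4-11, and one at the start of CLEC16A (chr16:10944565-10945087) had 523 and 367 bases in Kasumi-1 and none in MV4-11. Bases near DEXI and CLEC16A are thus part of the total given for CIITA. They also enter the shares of genes and the ratios between lists that rest on this total.

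Within Kasumi-1 the covered bases of CIITA in sh-ANP32B were 0.974 of those in NC, where the median gene had a ratio of 1.01, while the number of peaks was 14 against 10. Of the 4 added peaks, 2 were the small ones above and 2 arose where 1 peak of NC was split, as at 24837 bases after pI, where a further peak of 1423 bases followed one of 2137 bases. The lists shared 18050 bases, 89.1% of NC and 91.5% of sh-ANP32B. Within MV4-11 the ratio was 0.353, where the median gene had 0.810, and 6.33% of the 9465 genes with a peak in both lists were at or below it. All 2294 bases of MV4-11 sh-ANP32B lay inside the peaks of MV4-11 NC and made up 35.3% of them. Peaks in MV4-11 sh-ANP32B were narrower over the whole genome (median 742 against 815 bases), and the part of this in the lower cover of CIITA was not tested.

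Between the lines, MV4-11 NC had 0.321 of the covered bases of Kasumi-1 NC over CIITA, where the median gene had 0.712 and 12.5% of 10373 genes were at or below the value. For the sh-ANP32B lists the ratio was 0.116, the median 0.572 and the share 2.99% of 9206 genes. Of the peak bases of MV4-11 NC, 87.8% lay under peaks of Kasumi-1 NC, of which they made up 28.2%.

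CD74, the invariant chain that fills the groove of new class II molecules and steers them to the endosome, was the member with the steadiest peaks. It lies at chr5:150401637-150412969 on the minus strand, with its start at 150412910. Its promoter window held 2259 and 2636 bases in the NC and sh-ANP32B lists of Kasumi-1 and 2408 and 2199 in those of MV4-11, in 2 peaks each. In all 4 lists 1 peak spanned the start and the 250 bases printed above. The share of all genes with at least as many promoter bases was 11.6%, 7.94%, 3.73% and 3.02% in that order, so that CD74 ranked higher in the MV4-11 lists, whose promoters were less covered as a whole.

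The peak over the start was 1848 bases wide in Kasumi-1 NC (chr5:150411385-150413232), 1879 in Kasumi-1 sh-ANP32B (chr5:150411385-150413263), 1396 in MV4-11 NC (chr5:150412011-150413406) and 1215 in MV4-11 sh-ANP32B (chr5:150412193-150413407). These widths stood at percentiles 76.4, 77.7, 74.9 and 73.1 of their lists, a narrow range although the widths themselves fell from Kasumi-1 to MV4-11. The 5′ ends were also placed alike, at most 175 bases apart along the chromosome.

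Away from the start the lines differed in the arrangement of peaks. In the first intron MV4-11 had a peak of 1423 bases in NC (chr5:150409999-150411421) and of 1417 bases in sh-ANP32B (chr5:150409977-150411393), where each Kasumi-1 list had one of 448 bases. Before the start, the Kasumi-1 lists had a further peak of 411 bases in NC (chr5:150413963-150414373) and 757 bases in sh-ANP32B (chr5:150413911-150414667), and the MV4-11 lists had none. Kasumi-1 sh-ANP32B also had an added peak of 564 bases in the first intron (chr5:150408542-150409105).

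**Figure D3:**
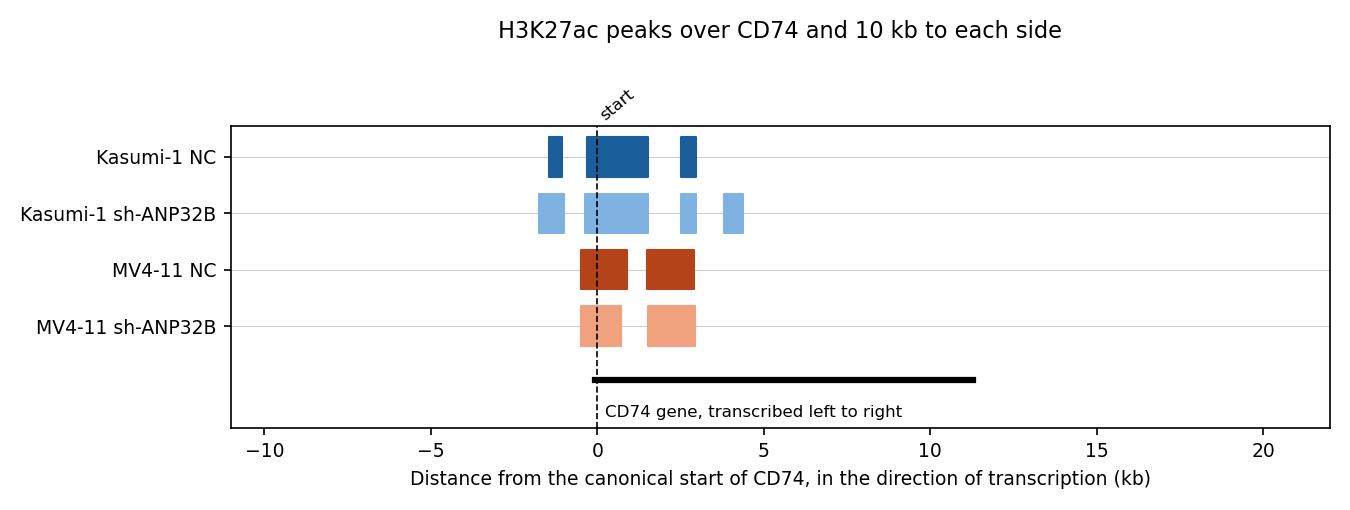
H3K27ac peaks (coloured bars, to scale) of the 4 libraries over CD74 and 10 kb to each side, by distance in kb from the start (dashed line). A peak covers the start in all 4 lists, the upstream peak is present in the Kasumi-1 lists only, and the peak in the first intron is wider in the MV4-11 lists (1423 and 1417 bases) than in the Kasumi-1 lists (448 bases each).

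Within Kasumi-1 the promoter bases of CD74 in sh-ANP32B were 1.17 times those in NC, where the median gene had a ratio of 1.00. Within MV4-11 the ratio was 0.913, where the median gene had 0.828. Neither passed the 1.5-fold difference. Over the gene body with 10 kb added the ratios were 1.35 in Kasumi-1 and 0.934 in MV4-11, beside medians of 1.01 and 0.810. Between the NC lists, MV4-11 had 1.07 times the promoter bases of Kasumi-1, where the median gene had 0.670. The shared bases over all bases covered in either list (Jaccard index) came to 0.737 for NC and sh-ANP32B of Kasumi-1, 0.918 for those of MV4-11 and 0.430 for the NC lists of the lines. For CIITA the same indices were 0.823, 0.353 and 0.271, so that the pair of MV4-11 lists was the most alike over CD74 and far apart over CIITA.

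HLA-DRA encodes the alpha chain shared by all DR molecules, and HLA-DRB1 the main variable DR beta chain. HLA-DRA had no peak in its promoter window or gene body in any list. HLA-DRB1 (chr6:32577902-32589848, minus strand) had 0 bases in 3 lists and a single peak of 370 bases in Kasumi-1 sh-ANP32B (chr6:32589468-32589837). The peak began 11 bases inside the gene from its start and did not reach the X and Y letters. It was among the narrowest of its list, at percentile 2.57, where the smallest width was 354 bases. With peaks of at least 1000 bases only, or with an equal number of the widest peaks from each list, it was no longer counted. A peak was gained at 1.61% of the promoters that had none in Kasumi-1 NC.

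HLA-DPA1 and HLA-DPB1, the chains of DP molecules, and HLA-DQA1 and HLA-DQB1, the chains of DQ molecules, had no peak in either window in any list. The same was true of HLA-DMB, one chain of the HLA-DM complex that exchanges the CD74 fragment for peptides. HLA-DMA, the other chain, had no promoter peak, while its gene body with 10 kb added held 4083, 4699, 4181 and 3314 bases. These bases lay at BRD2, a gene of the bromodomain family whose start at 32968594 is inside the widest annotated model of HLA-DMA. The widest of the peaks were centred 1607, 1322, 1750 and 1636 bases from the BRD2 start. They are counted for HLA-DMA by position and belong to no HLA-DMA promoter used here.

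From the start of HLA-DRA to the end of HLA-DPB1 (chr6:32439878-33089696, 649819 bases) the lists held 3, 5, 1 and 2 peaks in the same order. Each lay nearest to the start of PSMB8, TAP2, BRD2 or HLA-DRB1, and none at another class II gene. PSMB8, a subunit of the immunoproteasome, had 1493, 1644, 0 and 371 promoter bases. HLA-DRA stood in a stretch free of peaks of 647136, 396101, 775260 and 1008823 bases, with 13, 5, 19 and 41 coding starts in it. Of all stretches between neighbouring peaks, 3.88%, 6.07%, 3.01% and 2.58% were at least as long. These shares count stretches and not bases. A long stretch holds more of the genome, so they do not show how unusual the place of HLA-DRA is. The other class II genes HLA-DOA, HLA-DOB, HLA-DRB5, HLA-DQA2 and HLA-DQB2 had no peak in any list, 0 of 5 in either window.

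**Figure D4:**
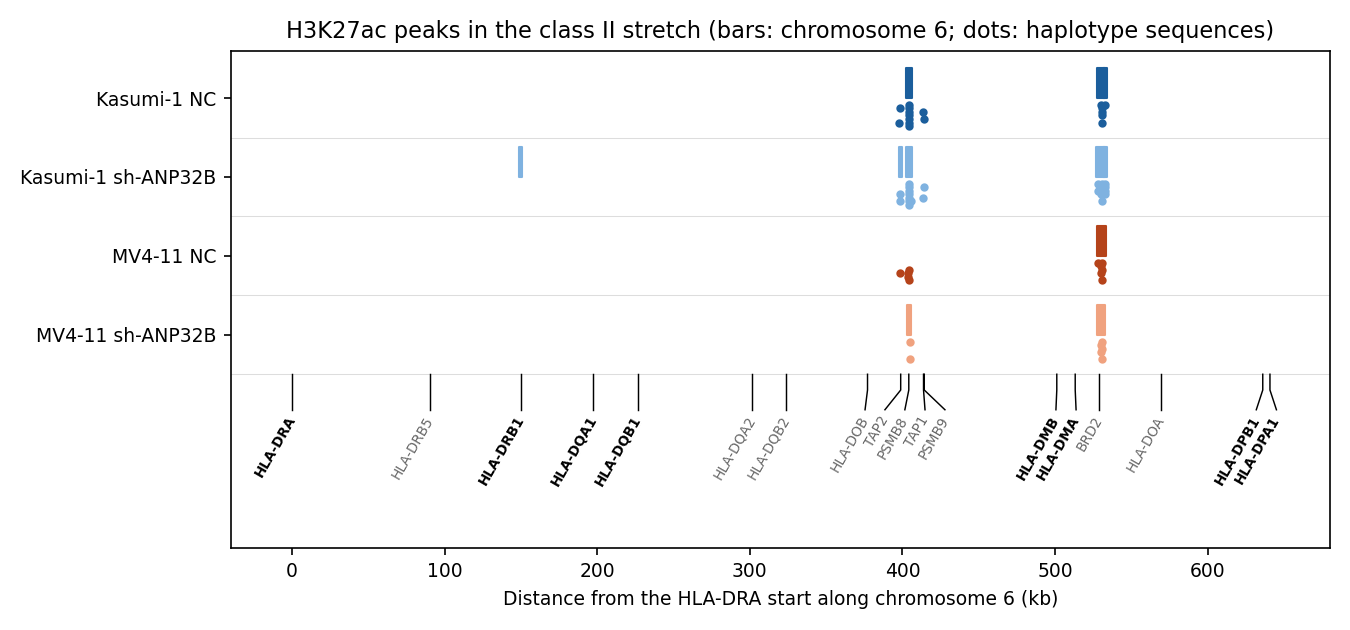
H3K27ac peaks of the 4 libraries from HLA-DRA to HLA-DPB1, by distance in kb from the HLA-DRA start along chromosome 6. Bars are peaks on chromosome 6 (drawn 1 kb wider at each end to be visible), dots are peaks on MHC haplotype sequences placed on chromosome 6, and gene starts are marked below with members in bold. Outside the short bar at HLA-DRB1 all bars and dots lie near TAP2, PSMB8, TAP1, PSMB9 or BRD2.

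The MHC has a property that bears on these zeros. The reference used by the authors held, besides chromosome 6, 7 haplotype sequences of the MHC, and peaks were deposited on them. Reads that fit several of these sequences equally well could be spread over them or given low mapping quality. The haplotype sequences held 326, 356, 231 and 176 peaks. All of these were placed on chromosome 6 by exact runs of 31 bases. None lay in the promoter window of any of 13 class II HLA genes in any list, where the promoter could be placed on 3 to 7 of the haplotypes by gene (4 for HLA-DRB1, 6 for HLA-DRA), and the one nearest to HLA-DRA was 243324, 243235, 243503 and 244350 bases away. BRD2, inside the same stretch, had a promoter peak on 5 haplotypes in each list, and PSMB8 on 7, 7, 4 and 2. By contrast HLA-B, HLA-C, HLA-E and HLA-F, class I genes of the same complex, had no promoter peak on chromosome 6 in any list and had one on haplotype sequences in 3, 3, 2 and 2 of 4 genes. The part of shared reads in the absence of class II peaks was not tested further. At each start of CIITA and at that of CD74, 10 spaced runs, each longer than 31 bases, were searched. None was found as an exact match on any of 431 other sequences of the reference. Copies that differ within these runs would have been missed.

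Promoter composition was a feature that the choice of members did not use. Of the 8 members with a RefSeq promoter, 7 had an observed-to-expected CpG ratio under 0.6 over 300 bases, with values from 0.0627 in HLA-DQA1 to 0.837 in HLA-DPA1, the exception. CD74 had 0.136. Over all genes of the table, 31.1% of promoters were CpG-poor by this measure. Of these, 17.8%, 17.3%, 14.9% and 12.8% had a peak, and 79.8% had none in any list. Of the CpG-rich promoters 64.3%, 60.9%, 47.5% and 37.7% had a peak, and 33.7% had none. Of the 7 CpG-poor members, 5 had no promoter peak in any list, a share no higher than that of CpG-poor promoters as a whole.

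The factors that bind the S, X and Y boxes had promoter peaks in most lists. All 7 enhanceosome genes, RFX5, RFXAP, RFXANK, NFYA, NFYB, NFYC and CREB1, had a promoter peak in each list but MV4-11 sh-ANP32B, where 5 had one, beside 47.7%, 45.3%, 35.8% and 28.6% of all genes. RFXAP, an RFX subunit, had 703, 460, 582 and 0 promoter bases, and NFYB 1826, 960, 911 and 0. These 2 of 7 were lower by 1.5-fold or more with sh-ANP32B in both lines, where 14.6% of all genes tested were lower in Kasumi-1 and 45% in MV4-11. The median over the 7 genes was 1826, 1499, 962 and 752 bases. RFX5, the DNA-binding RFX subunit, had 1499 bases in each Kasumi-1 list and 360 and 319 in the NC and sh-ANP32B lists of MV4-11, and RFXANK had 2730, 3235, 962 and 752.

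Of 13 genes that regulate CIITA, such as the interferon-gamma receptor and its JAK kinases, 9, 7, 8 and 8 had a promoter peak. The shares of all genes were 47.7%, 45.3%, 35.8% and 28.6%. With sh-ANP32B, 2 of 9 tested were lower and 0 higher in Kasumi-1, beside 14.6% and 4.89% of all genes tested, and 2 of 9 were lower and 1 higher in MV4-11, beside 45% and 7.28%. IRF1, which drives pIV after interferon-gamma, had 2433, 2861, 610 and 0 promoter bases. SPI1, the myeloid factor PU.1, was even, with 3084, 3042, 3008 and 3127 bases. IRF8 had 357 bases in Kasumi-1 NC and none in the other promoter windows, while its gene body with 10 kb added held 16003, 16375, 8782 and 7594. JAK1 had 528, 0, 518 and 499, and PRDM1, a repressor of CIITA in plasma cells, had 569 bases in MV4-11 sh-ANP32B only. IRF4 had no promoter peak.

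The acetyltransferases and coactivators that work with CIITA had a promoter peak in 4, 4, 2 and 2 of 5 genes. The shares of all genes were 47.7%, 45.3%, 35.8% and 28.6%. KAT2B had 1919, 1788, 0 and 0 bases and CARM1 1336, 1088, 0 and 0, the same division by line as the peak over pIII and pIV of CIITA. Over all genes, 27.9% of the promoters with a peak in Kasumi-1 NC had none in MV4-11 NC. CREBBP had 2115, 579, 1359 and 636 bases, lower with sh-ANP32B in both lines. It was the 1 of 4 partners tested in Kasumi-1 that was lower by 1.5-fold or more, and the 1 of 2 in MV4-11. Of all genes tested, 14.6% and 45% were lower. EP300 had 2095, 2089, 1963 and 1670. Of 9 genes of antigen processing, 5, 5, 5 and 4 had a promoter peak, to be read beside the same shares of all genes. IFI30, the reductase that opens disulfides of antigens, had 2096, 2357, 712 and 1691 bases, CTSS, the protease that trims CD74, 462, 614, 469 and 354, and SPPL2A, which cleaves the last CD74 fragment, 1103, 1460, 1008 and 0. Of the co-stimulatory genes CD80, CD86 and CD40 none had a promoter peak, and CD86 had 816, 897, 2739 and 4191 bases over its gene body with 10 kb added, more in MV4-11 than in Kasumi-1.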

How the data were processed

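H3K27ac CUT&Tag peak lists of 4 groups were used. The authors aligned reads to hg38 with Bowtie2, removed duplicates, merged replicates and called peaks with MACS at a q-value of 0.01. The submitters' processing notes name Bowtie2 2.4.4 and MACS3 3.0. The deposited lists give positions and lengths in bases, with no score, count or depth. The 2 IgG libraries were not analysed here. Groups came from the labels.

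Peaks were intersected with GENCODE v44 protein-coding genes (canonical starts; every annotated start for CIITA, joined within 500 bases) in Python 3.11.15 with pandas 2.3.3. An overlap of 1 base counted. The steps were tested on simulated peaks. A difference was called from 1.5-fold on, or where 1 list had no peak. All members were named, and genes of the pathway lists with a peak in 1 line or lost or gained; the other genes of these lists were named after their values were seen. Some genes of the lists are not reported here. The members and lists were chosen with earlier results of these data known. Alternatives varied windows, starts, flanks, peak width, joining, overlap and peak number.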

Additional observations from a re-analysis of the deposited data

Results flagged for a closer look

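Several values moved in opposite directions with sh-ANP32B in the Kasumi-1 and MV4-11 lists, and this difference was not tested, with 1 list a group. The ratio of bases under peaks, sh-ANP32B to NC, over all promoter windows of the members was 1.13 in Kasumi-1 and 0.913 in MV4-11. With peaks up to 1000 bases apart joined, this pair became 1.10 and 1.00. Over all gene bodies with 10 kb added the ratio was 1.05 and 0.610, and with peaks of at least 1000 bases only it was below 1 in both lines, at 0.901 and 0.607. The number of peaks over CIITA had ratios of 1.4 and 0.6. For CD74 the ratios of covered bases were 1.17 and 0.913 in the promoter window, and 1.35 and 0.934 over the gene body with 10 kb added. For HLA-DMA, whose bases lie at BRD2, they were 1.15 and 0.793. The median gene had promoter ratios of 1.00 and 0.828 in the same lists.

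Peaks on the MHC haplotype sequences entered none of the comparisons. There, of the class I genes HLA-B, HLA-C, HLA-E and HLA-F, a promoter peak was found for 3 in each Kasumi-1 list and 2 in each MV4-11 list.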

How the results depend on the processing

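Of 87 values under alternative settings, 82 kept their direction and stayed close to the reported value. Among these, the members with a promoter peak in Kasumi-1 sh-ANP32B fell from 3 to 2, without HLA-DRB1, with peaks of at least 1000 bases and with an equal number of the widest peaks, and rose to 4 with every annotated start, where Kasumi-1 NC had 3 in place of 2. With every annotated start of every member, 2 members had a promoter peak in each MV4-11 list, in place of 1, and the promoter ratio of MV4-11 NC to Kasumi-1 NC was 0.593 in place of 0.358, since a start of HLA-DMA then lies beside BRD2. With peaks of at least 1000 bases only, the ratio over gene bodies in Kasumi-1 was 0.901 in place of 1.05. With peaks up to 1000 bases apart joined, the promoter ratio in MV4-11 was 1.00 in place of 0.913. The cause of these last changes was not tested. Without HLA-DMA, an alternative chosen after seeing the data, the ratios over gene bodies were 1.03 for Kasumi-1, 0.528 for MV4-11 and 0.406 for MV4-11 NC to Kasumi-1 NC. No paired analysis was possible because the replicates were merged before peak calling and each group has 1 list. The lists hold no depth or peak height, so that a peak missing from a list may be one just under the threshold.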

Other observations

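The class I pathway, which presents peptides from inside the cell to CD8+ T cells, was covered in part. Of its 17 genes analysed, 10, 11, 9 and 9 had a promoter peak on the main chromosomes in Kasumi-1 NC, Kasumi-1 sh-ANP32B, MV4-11 NC and MV4-11 sh-ANP32B. The shares of all genes were 47.7%, 45.3%, 35.8% and 28.6%. B2M, the light chain of class I molecules, had 2019, 1347, 1647 and 1075 promoter bases in that order. NLRC5, the class I counterpart of CIITA, had 881, 1091, 338 and 0. Its gene body with 10 kb added held 5584, 4571, 3731 and 1924 bases, fewest in MV4-11 sh-ANP32B as for CIITA. That list also covered the fewest bases over the whole genome, 23.0 Mb.

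Of 5 dendritic cell markers, 3, 3, 4 and 4 had a peak over the gene body with 10 kb added in Kasumi-1 NC, Kasumi-1 sh-ANP32B, MV4-11 NC and MV4-11 sh-ANP32B. The shares of all genes for this window were 61.5%, 60.2%, 55.4% and 49.4%. In that window CLEC9A had 0, 0, 1162 and 1772 bases, CD1C 442, 457, 1266 and 1525, XCR1 3563, 4164, 2996 and 4017, FLT3 6146, 6363, 3329 and 2838, and CLEC4C 0 in each list.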
